A study of Arabidopsis thaliana with 8 samples.

Results

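Polysome loading of mRNAs in wild-type (WT) Arabidopsis seedlings is described here from the 4 WT arrays of a series of 8 ATH1 arrays. These are 2 arrays of WT polysomal RNA (PL) and 2 of WT non-polysomal RNA (NP), 1 of each per replicate, and the other 4 arrays hold both fractions of eif3h, a mutant carrying a T-DNA in the gene for the h subunit of initiation factor eIF3 that truncates the protein's C terminus. Plants of both genotypes were 10 days old, had grown on agar with mineral salts and sucrose under continuous light without further treatment, and gave their aerial parts for extraction. The replicates were independent preparations of pooled seedlings made on different days. PL RNA came from the bottom of a sucrose gradient, where mRNAs with several ribosomes sediment, and NP RNA from the top, where free mRNAs and mRNAs with a lone ribosome remain, so that an mRNA translated by 1 ribosome counts as non-polysomal.

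When initiation on an mRNA is frequent relative to the time a ribosome takes to travel along it, ribosomes accumulate on the coding sequence and the mRNA moves into the polysomes. mRNAs that are stored, being degraded, held in the nucleus or blocked at initiation stay near the top of the gradient. Chloroplasts and mitochondria translate their own mRNAs on bacterial-type ribosomes, which enter the same gradient once the organelles are lysed.

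The translation state of a probe set is log2 of its PL signal over its NP signal within a replicate, and the values below are means of both replicates with the SE of the fit. The deposited arrays shared nearly the same trimmed mean signal (494 to 496), so a translation state is relative to the other mRNAs on the arrays and does not give the share of an mRNA in polysomes. Of 22746 probe sets without controls, the 11373 with the higher mean signal were tested. Median signals were 194.4 and 211.1 on the PL arrays and 214.7 and 234.35 on the NP arrays. The aerial tissue was mixed, and in bulk tissue fewer cells of a type and less RNA per cell cannot be told apart. Of the 18 cell type markers checked, 7 had a probe set named here: RCA, the Rubisco activase of green tissue, had signals of 29361 and 29654 on the PL arrays and of 36163 and 20809 on the NP arrays, whereas the root markers PRX27, PRX57, EXPA7 and EXPA18 were too dim to be tested. PYK10, which serves as a root marker but is also an ER body glucosidase of seedling shoots, was bright.

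Translation states spread over a wide range in WT. The middle 50% of the 11373 probe sets lay between -0.49 and 0.47, and the full range ran from -4.47 to 3.91. At an adjusted p under 0.05, 1709 probe sets (15.0%) were higher in PL and 1714 (15.1%) were higher in NP, 30.1% together, and the smallest difference called was 0.55. With WT replicate 1 left out these numbers were 1061 and 994, and with WT replicate 2 left out they were 778 and 795. When each array was instead centred on its median, the numbers became 2240 higher in PL and 1266 higher in NP, because the NP arrays had the higher medians; the median translation state over all probe sets was -0.13 as deposited, 0.02 after centring and 0.01 after quantile normalization. Directions below are relative to the deposited scaling. PL and NP arrays did not overlap for 6707 probe sets (59.0%). The replicates had similar states: across the tested probe sets, which are not independent of each other and share arrays, r was 0.82 and the median difference between replicates was 0.30, and the sign was shared for 9077 probe sets. Dim probe sets were less precise: the SD between replicate states was 0.446 over the 2844 with the lowest signals and 0.258 over the 2843 with the highest.

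**Figure D1:**
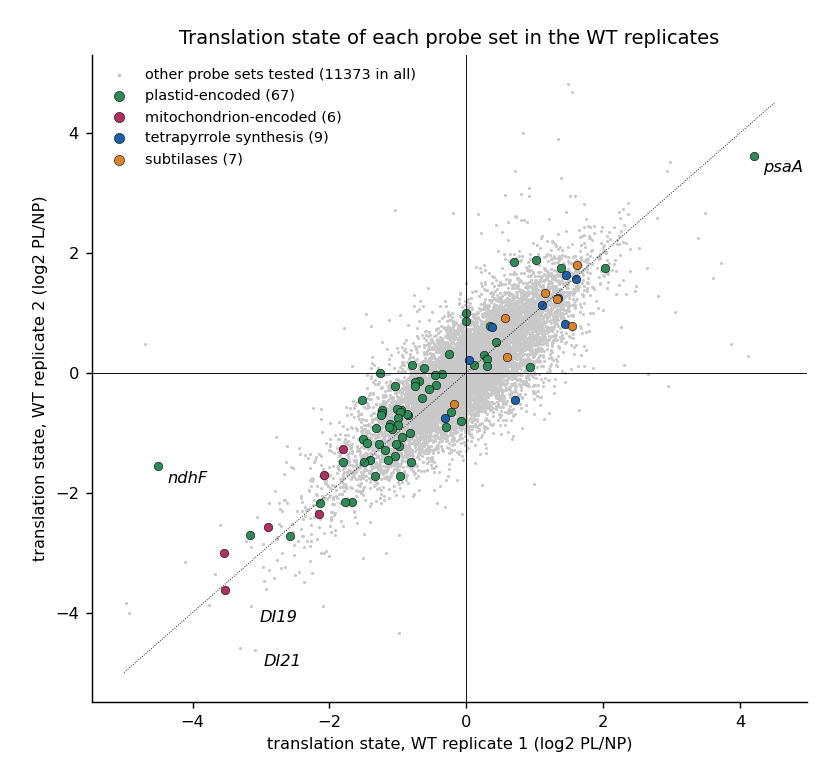
Translation state (log2 PL/NP) of each tested probe set in WT replicate 1 (x axis) and WT replicate 2 (y axis), with 4 gene lists coloured; the dotted line marks equal values. Mitochondrion-encoded genes lie at the lower left, between -3.58 and -1.54 in their means, plastid-encoded genes mostly below 0 with psaA at 3.91, and tetrapyrrole and subtilase genes mostly at the upper right.

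The range of states was then described by gene function. Lists were drawn from 5965 tested genes with a name of their own, of which 735 (12.3%) were higher in PL and 1045 (17.5%) higher in NP, with a median translation state of -0.06. Among the 44 lists with at least 5 tested genes, the highest medians were 1.16 for subtilases and 1.11 for tetrapyrrole synthesis, a list with 1 gene of chlorophyll b breakdown. Nuclear-encoded plastid ribosomal proteins (0.93) and histones (0.85) followed. The lowest medians belonged to mitochondrion-encoded genes (-2.49), nuclear loci that copy mitochondrial sequence (-1.73), RING finger proteins (-0.90) and plastid-encoded genes (-0.80). The place of the RING finger list depended on the signal filter. No list was tested as a set.

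**Figure D2:**
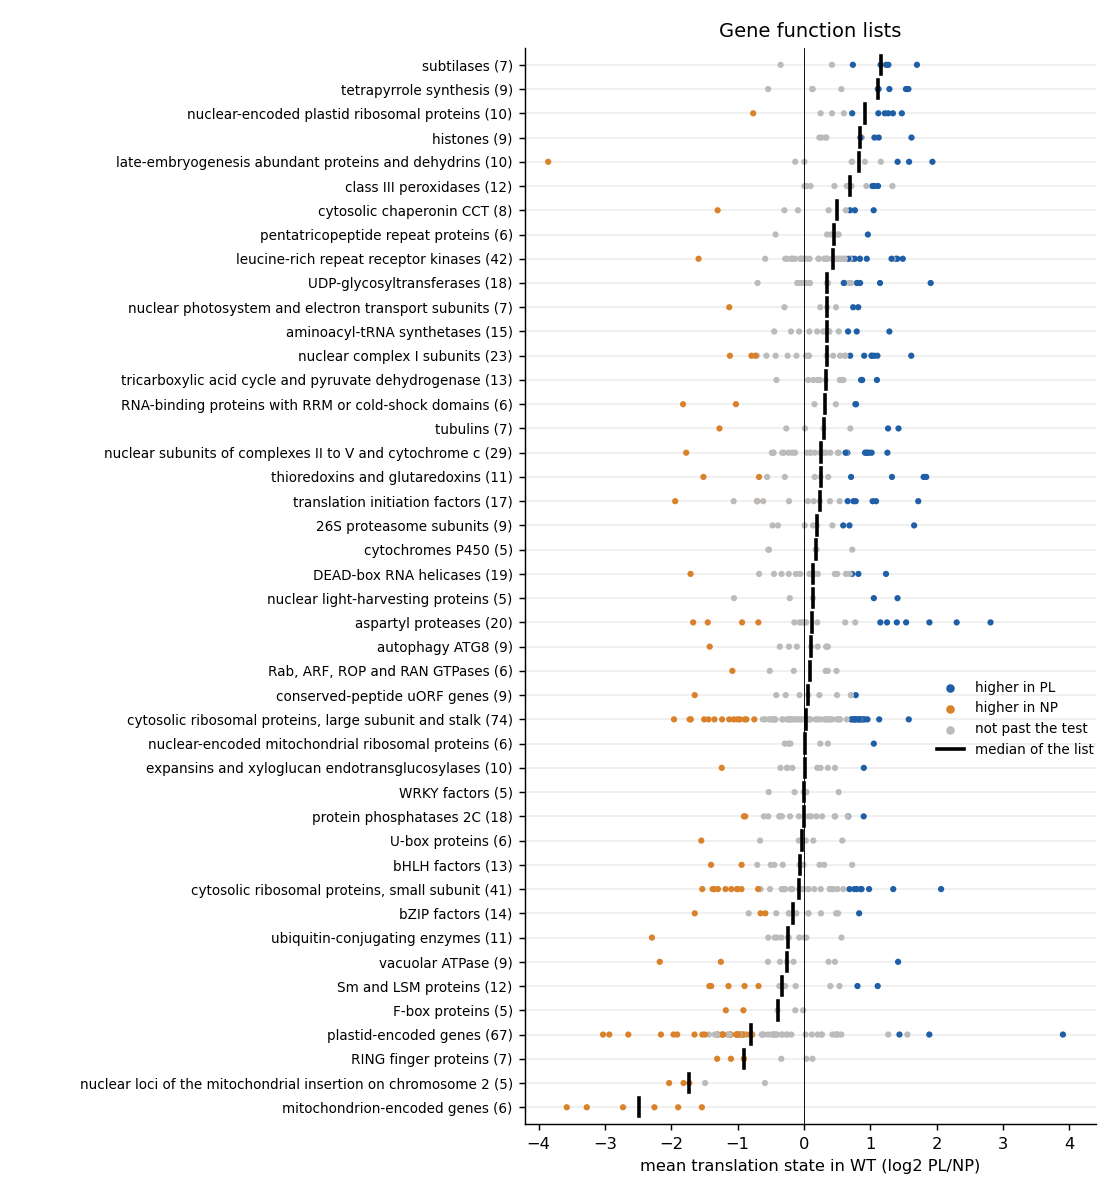
Mean translation state in WT (x axis, log2 PL/NP) of the tested genes in each gene function list with at least 5 tested genes (rows, number of genes in parentheses), ordered by the list's median (black bar). Blue points were higher in PL, orange points higher in NP, and grey points did not pass the test; medians ran from 1.16 for subtilases to -2.49 for mitochondrion-encoded genes.

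Extremes are ranked here only among called genes with a name of their own and all WT signals above a floor of 43.6; of the 100 highest and the 100 lowest tested probe sets 47 and 61 had such a name, and the lowest state of all (-4.47) had none. The 12 highest translation states so ranked belonged to genes of mixed function, 2 of them aspartyl proteases. psaA, the plastid gene of a core protein of photosystem I, had the highest state of all, with signals of 6318.4 and 4467.8 in PL and of 344.7 and 364.0 in NP. Both PL arrays were far above both NP arrays, and the state was 3.91 ± 0.34 (adjusted p = 0.00030, limma). The next were AT1G64370 (3.24) and AT4G32605 (3.15), for which no role is given here. AT5G07030, an aspartyl protease, had signals of 1686.0 and 1046.4 in PL and of 162.0 and 220.0 in NP (2.81 ± 0.45, adjusted p = 0.0025). AT1G09750, another aspartyl protease, had signals of 4998.5 and 8480.1 in PL and of 1048.4 and 1658.1 in NP (2.30 ± 0.19, adjusted p = 0.00029). In both genes the fractions did not overlap, as for 59.0% of all probe sets tested. VPS60.2, which belongs to the membrane-remodelling ESCRT-III machinery, reached 2.26, and the others among the 12 highest (AT4G19200, AT1G52510, AT3G26450, AT5G45350, AT4G29030 and AT5G61660) lay between 2.20 and 2.69.

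The family of aspartyl proteases, listed after these members had been seen, had calls in both directions. Named genes as a whole did so too, with 12.3% higher in PL and 17.5% higher in NP. Of 20 tested members of the family 7 were higher in PL and 4 higher in NP, with a median of 0.12. The family's share higher in PL was above that of named genes, and its share higher in NP was near it. Relative to all named genes the median was 0.18, and it was 0.33 without WT replicate 2, 0.40 without the signal filter and 1.21 in the upper 25% of signal. AT3G54400 stood at 1.89 and AT1G01300 at 1.54, whereas AT3G02740 stood at -1.67 and AT1G08210 at -1.45, all past the test.

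The 12 lowest translation states under the same rule included drought-induced and organellar genes. DI21, a late-embryogenesis abundant protein induced by drought, had signals of 246.2 and 82.5 in PL and of 2097.1 and 2032.9 in NP. DI19, a drought-induced zinc finger protein, had signals of 2892.9 and 2107.1 in PL and of 25625.7 and 31243.6 in NP. For both genes every NP array was far above every PL array, and the states were -3.86 ± 0.42 and -3.52 ± 0.24 (adjusted p = 0.00057 and 0.00019). AT5G43460, at 2368.3 and 1578.9 in PL and 18024.7 and 19329.5 in NP, and AT5G47435, a formyltetrahydrofolate deformylase, at 894.3 and 813.9 in PL and 6920.3 and 9059.1 in NP, were low to a similar degree (-3.27 and -3.21). AT3G61200, a thioesterase family member, AT5G58570, AT5G20700, AT3G18215 and AT1G65370, which encodes a TRAF-like protein, lay between -3.32 and -3.07. The remaining 3 of the 12 lowest were the organellar genes cox1, nad1 and ndhF.

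**Figure D3:**
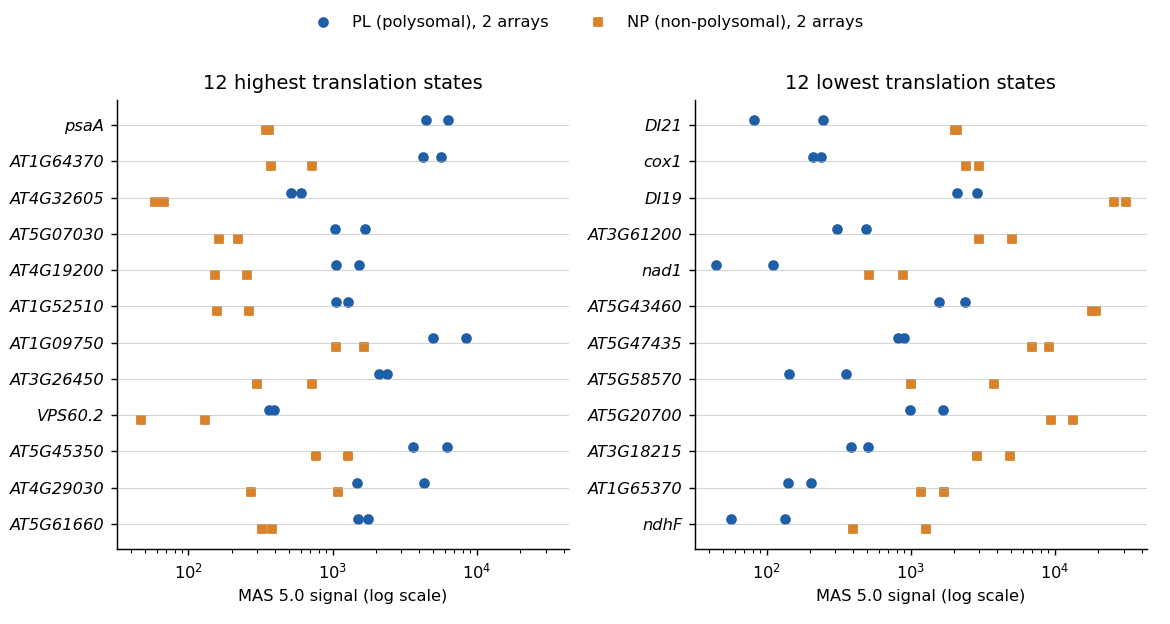
MAS 5.0 signals (log axis) on the 2 PL arrays (blue circles) and the 2 NP arrays (orange squares) of WT for the 12 genes with the highest (left) and the 12 with the lowest (right) translation states. PL and NP arrays do not overlap for any of the 24 genes, which were picked for their extreme states. Over all probe sets tested, 59.0% did not overlap.

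A further 5 genes would have ranked with these but fell under the signal floor on at least 1 array, so the size of their state is uncertain. AT1G53030, a COX17-type copper chaperone, had signals of 101.8 and 41.1 in PL against 1011.4 and 984.4 in NP, and AT3G27340 had 41.9 and 88.4 in PL against 1317.8 and 1270.5 in NP. AT4G39860, AT5G55450 and AT3G51720 were higher in PL, with a dim array in NP.

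Mitochondrion-encoded mRNAs were low in polysomes without exception among those tested. No source used here says how the cDNA for the arrays was primed, and the part of priming in the values of mitochondrial and plastid mRNAs was not tested. All 6 tested genes were higher in NP, against 15.1% of all probe sets. cox1, a catalytic subunit of cytochrome c oxidase, had signals of 210.3 and 240.1 in PL and of 2417.9 and 2974.3 in NP (-3.58 ± 0.22, adjusted p = 0.00019). nad1, a membrane subunit of complex I, had 44.3 and 110.2 in PL and 517.6 and 884.1 in NP (-3.28 ± 0.45). The lower PL signal lay just above the floor of 43.6. Another tested nad1 probe set was also higher in NP, at -1.78, so the size of the nad1 state depended on the probe set. The NP arrays were higher throughout for both genes. The others were ccb382 (-2.73) and ccb452 (-2.25), which act in cytochrome c maturation, the complex I subunit gene nad4 (-1.90) and orfX (-1.54). Among all 23 probe sets of 16 mitochondrial genes, most of them too dim to be tested, 22 were below 0 in both replicates, and the exception, a dim nad2 probe set, read 30.6 and 37.8 in PL and 2.3 and 4.3 in NP. A copy of the mitochondrial genome lies in nuclear chromosome 2, and probes for these genes cannot tell the copies apart. Of 5 tested probe sets named for loci of that insertion, a group listed after its values were seen, 3 were higher in NP and none higher in PL (median -1.73).

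Plastid-encoded mRNAs were also low, but with exceptions of large size. Of 67 tested genes 27 (40.3%) were higher in NP and 3 (4.48%) higher in PL, against 17.5% and 12.3% of named genes. The median was -0.80, at -0.96 in replicate 1 and -0.68 in replicate 2. By role, subunits of the cytochrome b6f complex, which links the photosystems, were lowest, with 5 of 6 higher in NP and a median of -1.35. petN, a small subunit of that complex, had signals of 727.7 and 618.5 in PL and of 6503.4 and 4046.0 in NP (-2.93 ± 0.54, adjusted p = 0.0046). petG, another small subunit, stood at -1.97. Genes of the NDH complex, which returns electrons to plastoquinone, had a median of -1.0 with 4 of 10 higher in NP. ndhF was the lowest plastid gene, but its replicates differed widely, at -4.50 and -1.56. Photosystem II genes had a median of -0.93, with 7 of 15 higher in NP, among them psbN (-2.65) and psbJ (-1.65). The plastid genes of the small (median -0.40) and large (median -0.33) subunits of the plastid ribosome lay nearer to 0, with 3 of 7 and 1 of 7 higher in NP, rps16 being the lowest (-2.16). clpP, the catalytic subunit gene of the Clp protease, was low as well, at 18088.7 and 16362.8 in PL and 57599.1 and 72758.0 in NP (-1.91 ± 0.28, adjusted p = 0.0018).

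The 3 plastid genes higher in PL were psaA (3.91), psbD (1.89), which encodes the D2 reaction centre protein of photosystem II, and rpl22 (1.44), a plastid ribosomal protein gene. psbD had signals of 2598.8 and 2436.4 in PL and of 635.9 and 723.5 in NP, and rpl22 had 5547.7 and 4209.3 in PL and 2751.1 and 1152.0 in NP. Neither gene's fractions overlapped, as for 59.0% of all probe sets tested. atpI (1.56, adjusted p = 0.052) and ndhH (1.27, adjusted p = 0.21) did not pass the test. rbcL, the large subunit of Rubisco, had signals of 4529.4 and 5475.8 in PL and of 5414.4 and 4429.0 in NP, which overlapped, and a state of 0.024 (adjusted p = 0.98).

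**Figure D4:**
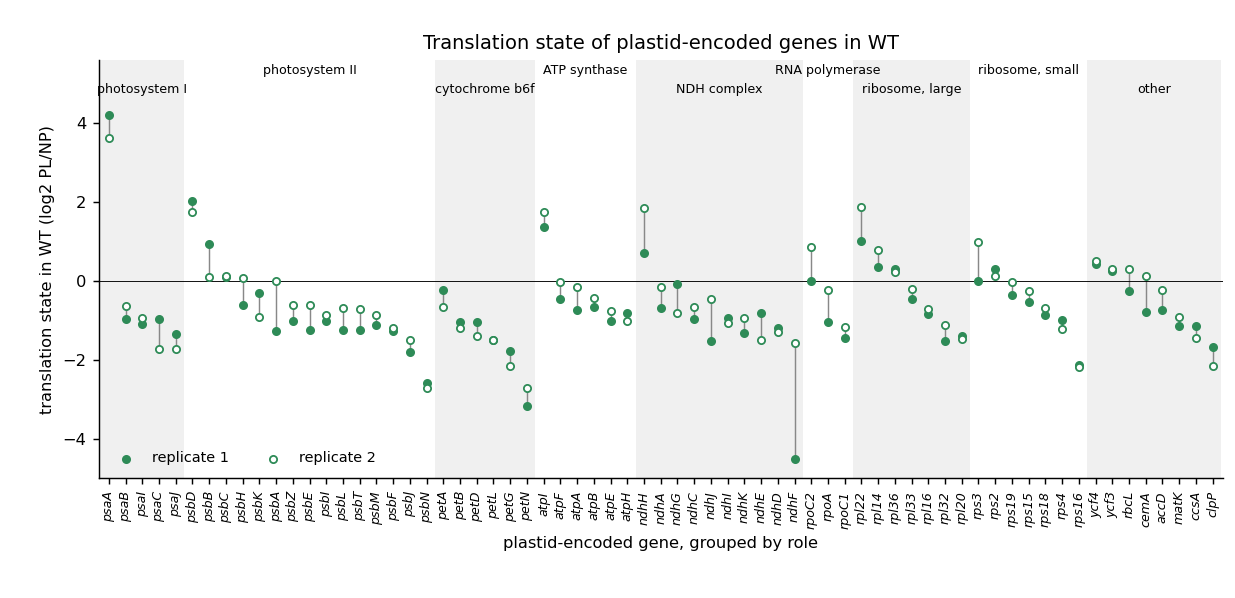
Translation state in WT (y axis, log2 PL/NP) of the 67 tested plastid-encoded genes (x axis), grouped by role and ordered within each group by their mean, in replicate 1 (filled) and replicate 2 (open). Most genes lie below 0; psaA, psbD and rpl22 were higher in PL, and ndhF has the widest gap between replicates.

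Plastid genes are transcribed together in polycistronic units, and the members of a unit did not all share a state. psaA and psaB lie next to each other and encode the paired core proteins of photosystem I. psaB had signals of 34408.7 and 45179.2 in PL and of 66895.1 and 69770.6 in NP, a state of -0.79 ± 0.26 (adjusted p = 0.044) that turned to 0.024 under quantile normalization. The states of these neighbours were 4.70 apart. In NP, however, psaA read only 344.7 and 364.0, far below psaB in the same fraction. Whether the 2 probe sets report the same transcripts was not tested. In the unit of psbD and psbC, psbD stood at 1.89 and psbC, a chlorophyll-binding antenna protein of photosystem II, at 0.12 with overlapping fractions. The unit from psbE to psbJ was uniform, with all 4 genes higher in NP, between -1.65 and -0.93. Of all tested plastid genes 40.3% were higher in NP, and of named genes 17.5%. In the unit from petL to rps18, 4 of 5 genes were higher in NP, with a median of -1.49. In the ribosomal protein unit from rps19 to rpoA none of 7 was higher in NP. With so few genes this is not far from the 17.5% of named genes. Within the units with at least 2 tested genes, the gap between the lowest and the highest member ranged from 0.31 for ndhC, ndhK and ndhJ to 4.70.

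Several lists of nuclear genes for chloroplast proteins had medians above 0. The tetrapyrrole list covers the route to chlorophyll and haem and also holds NOL, a gene of chlorophyll b breakdown. It had 5 of 9 tested genes (55.6%) higher in PL and none higher in NP. Among named genes 12.3% were higher in PL and 17.5% higher in NP. HEMB1, the enzyme that forms porphobilinogen, had signals of 2729.0 and 2992.2 in PL and of 901.2 and 1019.1 in NP (1.58 ± 0.19, adjusted p = 0.00089). GSA1, which makes aminolevulinate, the first committed precursor, had 1748.3 and 1430.1 in PL and 640.4 and 462.7 in NP (1.54 ± 0.24, adjusted p = 0.0023). The fractions of both genes were clearly separate. NOL (1.29), CHLI2 (1.13) and HEME2 (1.11), which act in chlorophyll b breakdown, magnesium insertion and uroporphyrinogen decarboxylation, were also higher in PL, whereas CHLM, a methyltransferase later in the route, stood at -0.54 (adjusted p = 0.083).

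Of 10 nuclear-encoded plastid ribosomal proteins 6 (60.0%) were higher in PL and 1 (10.0%) higher in NP, against 12.3% and 17.5% of named genes. AT4G01310, plastid L5, had signals of 6952.7 and 5346.4 in PL and of 2361.1 and 2031.6 in NP (1.48 ± 0.20, adjusted p = 0.0014). AT5G65220, plastid L29, was the exception, at 11351.9 and 10495.9 in PL and 17693.7 and 19454.2 in NP (-0.77 ± 0.24, adjusted p = 0.043). Among light-harvesting proteins LHCB4.3 (1.41) and the related LIL3:1 (1.05) were higher in PL, and LIL3:2, the paralog of LIL3:1, stood at -1.05 (adjusted p = 0.10). Only 4 Calvin cycle genes and 4 genes of fatty acid synthesis were tested. PRK, the phosphoribulokinase, was higher in PL with 19328.7 and 18822.9 against 11047.7 and 10576.9 in NP (0.82), as were the phosphoglycerate kinase AT1G56190 (1.22) and the fatty acid synthesis genes AT2G22230 (1.24) and AT1G24360 (1.07).

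Lists of cell wall and cell surface proteins differed in their calls. Counts are read against the 12.3% of named genes higher in PL and the 17.5% higher in NP. Expansins and xyloglucan endotransglucosylases, which loosen and remodel walls, had 1 of 10 tested genes higher in PL and 1 higher in NP. Of 7 subtilases, a family of mostly secreted serine proteases, 5 (71.4%) were higher in PL and none higher in NP. AT3G14067 had signals of 1821.8 and 1431.6 in PL and of 593.4 and 413.6 in NP (1.70 ± 0.27, adjusted p = 0.0024), and SBT1.3 had 2641.9 and 2598.5 in PL and 1058.9 and 1107.7 in NP (1.27 ± 0.20). All 12 class III peroxidases, enzymes of the cell wall, were above the median of all genes, but only 4 passed the test, PRXR1 among them with 14724.8 and 19298.9 in PL and 7269.8 and 9339.6 in NP (1.03). Of 42 leucine-rich repeat receptor kinases, membrane proteins that perceive peptides and hormones, 9 (21.4%) were higher in PL and 1 (2.38%) higher in NP, with a median of 0.43. These were 42 of 127 named members, and without the signal filter the median relative to all named genes was 0.19, against 0.50 with it. PSY1R, a receptor kinase named for a growth-promoting sulfated peptide, had 393.6 and 614.4 in PL and 171.9 and 199.6 in NP (1.41 ± 0.26, adjusted p = 0.0048). The kinase higher in NP was AT1G34110 (-1.59). FER, the FERONIA receptor kinase of cell growth, belongs to another kinase family and had 2086.3 and 1639.7 in PL and 827.7 and 682.7 in NP (1.3 ± 0.20, adjusted p = 0.0023). Outside these lists, UDP-glycosyltransferases, which attach sugars to small molecules, had 5 of 18 genes higher in PL and none higher in NP, with UGT85A2 the highest (1.91).

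The genes of the translation machinery itself were spread to both sides. Among 115 tested cytosolic ribosomal protein genes, the small subunit had 8 higher in PL and 10 higher in NP of 41 (median -0.07), and the large subunit with the stalk 15 and 14 of 74 (median 0.03). These were 19.5% and 24.4% of the small and 20.3% and 18.9% of the large subunit genes, against 12.3% and 17.5% of named genes, while the SD over ribosomal protein genes, 0.78, was close to the 0.77 over all named genes. Ribosomal proteins in plants are each encoded by several paralogs, and in some families the paralogs differed. In 7 of the 39 families with at least 2 tested members, 1 member or more was higher in PL and another higher in NP. The median gap between the highest and the lowest paralog was 1.14. Whether sets of unrelated genes of the same sizes give a smaller gap was not tested. The P0 proteins of the stalk gave the widest gap: AT3G11250 had 755.1 and 568.1 in PL and 506.0 and 252.2 in NP (0.87 ± 0.25, adjusted p = 0.027), and AT3G09200 had 9743.2 and 10012.4 in PL and 27608.9 and 37632.1 in NP (-1.71 ± 0.20, adjusted p = 0.00073). Their states lay on opposite sides of 0 in both replicates. In the L7 family AT1G80750 stood at 0.83 and AT3G13580 at -1.72, and in the S7 family AT1G48830 at 1.35 and AT3G02560 at -0.94, all past the test. In the S9 family AT5G39850 was the highest ribosomal protein gene of all, with 732.4 and 316.6 in PL and 266.1 and 49.5 in NP (2.07 ± 0.42). Other families moved together: both S24 genes were higher in NP (-1.38 and -1.53), and both P3 genes (1.58 and 0.71) and both L4 genes (1.14 and 0.80) were higher in PL. The paralogs are alike in sequence, and how far their probes cross-hybridise was not tested.

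**Figure D5:**
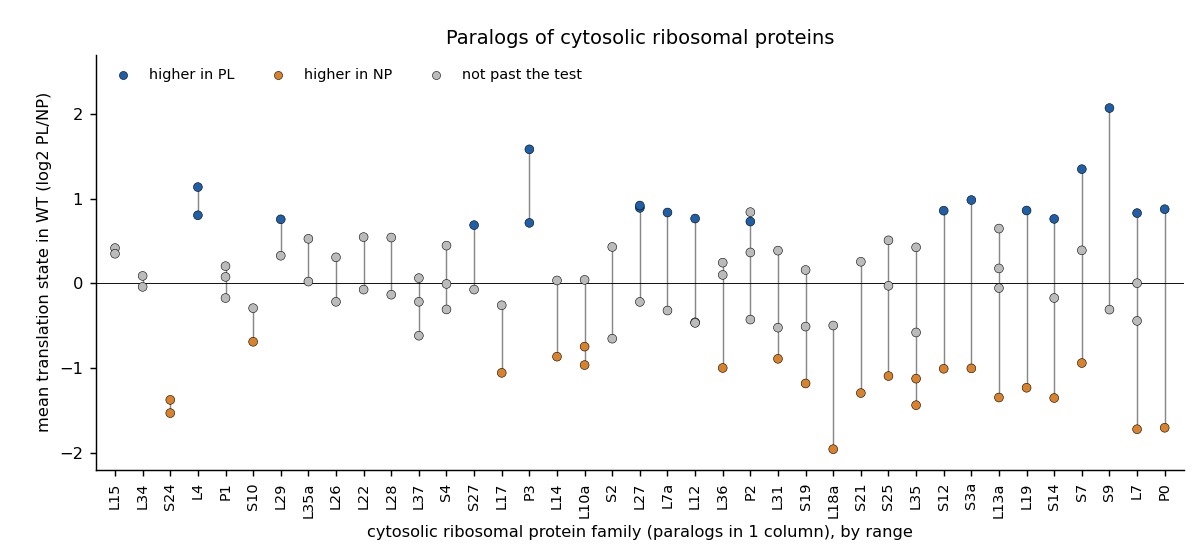
Mean translation state in WT (y axis, log2 PL/NP) of the tested paralogs in each of 39 cytosolic ribosomal protein families (x axis, ordered by the gap between the highest and the lowest paralog). Blue points were higher in PL, orange points higher in NP and grey points not past the test; 7 families hold both blue and orange points.

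Of 17 initiation factors 6 (35.3%) were higher in PL and 2 (11.8%) higher in NP (median 0.24), against 12.3% and 17.5% of named genes. Relative to all named genes that median was 0.30, and 0.16 without WT replicate 2. eIF1A, which promotes scanning for the start codon, was highest: AT2G04520 had 4403.0 and 2555.8 in PL and 1788.7 and 576.1 in NP (1.72 ± 0.31, adjusted p = 0.0038). The eIF3 subunits divided. AT4G20980 (eIF3d, 1.04) and AT1G66070 (eIF3j, 1.09) were higher in PL, and both genes of eIF3m, AT3G02200 with 1345.6 and 957.9 in PL and 4883.4 and 3896.0 in NP (-1.94) and AT5G15610 (-0.71), were higher in NP. Of 15 aminoacyl-tRNA synthetases, which charge tRNAs, 3 were higher in PL and none higher in NP (median 0.35).

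In the nucleus, 4 of 9 histone genes (44.4%) were higher in PL and none higher in NP, against 12.3% and 17.5% of named genes. Relative to all named genes the histone median was 0.92, and 0.41 without WT replicate 2. HTB4, a histone H2B, had 2825.5 and 2602.7 in PL and 1101.3 and 704.2 in NP (1.62 ± 0.24, adjusted p = 0.0018), followed by the H2B genes HTB11 (1.13) and HTB2 (1.06). Sm and LSM proteins are the ring-forming cores of spliceosomal particles and of mRNA decapping complexes. Of 12 tested, 5 (41.7%) were higher in NP and 2 (16.7%) higher in PL. LSM3A, with 351.5 and 108.3 in PL and 697.8 and 393.5 in NP (-1.43), and LSM3B, with 351.1 and 298.5 in PL and 903.3 and 806.2 in NP (-1.40), were both low. MAC3A and MAC3B, paralogous U-box proteins of a spliceosome-associated complex, stood at 0.58 (adjusted p = 0.070) and -1.55 (adjusted p = 0.00097). RBP45B (0.78) and ATRBP45C (-1.82), related mRNA-binding proteins, differed in sign as well, both past the test.

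Counts for ubiquitin ligases and transcription factors are read against the 12.3% of named genes higher in PL and the 17.5% higher in NP. None of 7 RING finger proteins was higher in PL and 4 were higher in NP: RING1 (-1.31), AT5G53360 (-1.10), BRH1 (-0.91) and XERICO (-0.90), a ubiquitin ligase gene tied to abscisic acid. Without the signal filter the RING finger median relative to all named genes was -0.26, against -0.84 with it. Of 5 F-box proteins 2 were higher in NP, FBL17 (-1.18) and HWS (-0.91). Of 11 ubiquitin-conjugating enzymes only UBC28 passed the test, with 5736.9 and 6192.6 in PL and 25265.8 and 33735.0 in NP (-2.29 ± 0.24, adjusted p = 0.00053). The 26S proteasome, which degrades the proteins these enzymes mark, had 3 of 9 genes higher in PL and none higher in NP, with AT1G75990 at 1.66. Of 14 bZIP genes 1 (7.14%) was higher in PL and 3 (21.4%) were higher in NP. Of 13 bHLH genes none was higher in PL and 2 (15.4%) were higher in NP. These were bHLH121 (-1.40) and PYE (-0.94), both regulators of the iron response. For both families the share higher in NP was near the background. With 14 and 13 genes, the lower share higher in PL rests on very few genes and was not tested. Each other transcription factor family listed had at most 5 tested genes, none of them higher in PL. BZIP53, whose leader holds an upstream reading frame with a conserved sucrose-responsive peptide, had 1024.3 and 1394.7 in PL and 4112.3 and 3406.8 in NP (-1.65 ± 0.23, adjusted p = 0.0016). It was the only 1 of 9 tested genes with such conserved frames that was higher in NP, and AT1G36730, an eIF5 gene, was the only 1 higher in PL (0.78). SAMDC, a polyamine synthesis enzyme with such a frame, stood at -0.42 (adjusted p = 0.12). Neither of the 2 clock genes tested passed the test.

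Nuclear genes of the respiratory chain did not share the low states of its mitochondrial genes. Among named genes 12.3% were higher in PL and 17.5% higher in NP. Each list below had a larger share higher in PL than named genes, and none had a larger share higher in NP. The complex I share higher in NP was near that of named genes. Of 23 nuclear complex I subunits 7 were higher in PL and 3 higher in NP (median 0.34; relative to all named genes 0.41, and 0.25 without WT replicate 1), and of 29 subunits of complexes II to V and cytochrome c 8 were higher in PL and 1 higher in NP (median 0.26). AT5G52840, a complex I subunit, had 3738.2 and 5008.0 in PL and 1406.1 and 1411.7 in NP (1.62 ± 0.19, adjusted p = 0.00085). AT2G01090, the hinge protein of complex III, was the exception in the second list, with 804.6 and 577.9 in PL and 2347.0 and 2324.4 in NP (-1.78 ± 0.21, adjusted p = 0.00085). Of 13 genes of the tricarboxylic acid cycle and pyruvate dehydrogenase, 3 (23.1%) were higher in PL and none higher in NP.

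Several families had members far to both sides. Among all named genes 12.3% were higher in PL and 17.5% higher in NP, so calls in both directions are not particular to these families. Among 10 late-embryogenesis abundant proteins and dehydrins, which protect cells against drying and cold, AT1G54410, COR47 and COR15B (30.0%) were higher in PL. AT1G54410, a small dehydrin, had 14057.2 and 19719.0 in PL and 4258.2 and 4432.4 in NP (1.94 ± 0.22, adjusted p = 0.00070), and COR47 had 2550.3 and 2668.1 in PL and 1008.8 and 748.2 in NP (1.59 ± 0.32). DI21 (-3.86) was the only member higher in NP (10.0%). The glutaredoxin GRXC2 had 5275.0 and 5260.2 in PL and 1669.0 and 1288.9 in NP (1.84 ± 0.19, adjusted p = 0.00052), and AT1G77370, another glutaredoxin, had 824.1 and 553.3 in PL and 1718.2 and 2170.1 in NP (-1.52 ± 0.26, adjusted p = 0.0033). Tubulins were split as well, with TUB1 (1.43) and TUB7 (1.27) higher in PL (28.6% of 7) and TUA6 (-1.27) higher in NP (14.3%). For the chaperonin CCT 3 of 8 (37.5%) were higher in PL and 1 (12.5%) higher in NP. AT5G16070, a CCT zeta subunit, stood at -1.30. In the vacuolar proton pump AT3G58730 stood at 1.42 and AT4G26710 at -2.17. Its shares, 11.1% higher in PL and 22.2% higher in NP of 9 genes, were near those of named genes.

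The WT states were set against those of eif3h by the interaction of fraction and genotype. Of 11373 probe sets 6 (0.0528%) passed that test. That fit blocks by replicate number across both genotypes, so it does not pair the 2 fractions of each gradient. With the gradient as the block, which does pair them, 186 passed. The number was 40 after median centring and 0 without a block. Among the 6 of the main fit, the 4 with a gene name were AT5G55600, AT5G18800, AT3G14600 and AT2G15560. AT3G14600, a ribosomal protein L18a, had signals of 4292.7 and 3175.3 in PL and of 17154.7 and 12020.8 in NP in WT, and of 5553.7 and 4885.6 in PL and of 5175.9 and 3491.2 in NP in eif3h. NP exceeded PL in both WT replicates and fell short of it in both eif3h replicates, and the difference of states, WT minus eif3h, was -2.25 ± 0.27 (adjusted p = 0.046). AT5G18800, a complex I subunit, likewise had a state of -0.79 in WT and 1.27 in eif3h (difference -2.07 ± 0.26, adjusted p = 0.046). psaA, at 3.91 in WT and 0.60 in eif3h, did not pass (difference 3.31 ± 0.48, adjusted p = 0.070). For plastid-encoded genes the median was -0.80 in WT and -1.83 in eif3h. None of the 67 passed the interaction test of the main fit, and their number with the gradient as the block is not given here.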

How the data were processed

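Seedling RNA from sucrose gradient fractions was hybridised to ATH1 arrays as biotin-labelled cRNA. The authors deposited MAS 5.0 intensities on a linear scale, as the submitters' processing notes name the method, and the values show a nearly equal trimmed mean on each array; no source used here says how the cDNA was primed. The intensities were log2-transformed, 64 control probe sets were left out, and the upper 50% by mean log2 signal over the 8 arrays were tested (11373 of 22746). limma 3.58.1 in R 4.3.3 fitted 4 groups with the replicate number as a block (lmFit, eBayes with a variance trend), and p-values were adjusted by Benjamini-Hochberg over all probe sets tested, with a threshold of 0.05. SEs come from this fit, with 2 replicates per group, which also limits the precision. Replicates were prepared on different days, and same-numbered arrays deviated together. This was stronger between the 2 fractions of a genotype (r of 0.68 in WT and 0.52 in eif3h) than across genotypes (r from 0.33 to 0.40). With the gradient as the block, 2226 probe sets were higher in PL and 2208 higher in NP. Without the block, 838 and 895 probe sets were called in place of 1709 and 1714.

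Names came from the deposited platform annotation and RefSeq (TAIR10.1): 13436 probe sets had 1 gene found in RefSeq, 77 had 1 gene not found there, 503 had several and 8730 had none, so lists cover only part of each family. Each gene was represented by its brightest probe set. The rule for named genes took the 12 highest and 12 lowest called genes with the same sign in both replicates and all WT signals at or above 43.6 (the 20th percentile), and the extreme members of each list; further members were named after their values were seen. The members and lists were chosen with earlier results of these data known, and the lists of aspartyl proteases and of the chromosome 2 insertion were added after values were seen. Alternatives changed the block, the arrays fitted, the scaling, the signal filter, the pseudocount and the variance model, or left out a WT replicate. The fit was tested on simulated data.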

Additional observations from a re-analysis of the deposited data

Results flagged for a closer look

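For 6 probe sets the translation state differed between WT and eif3h by the interaction test with the replicate number as the block (limma, adjusted over all probe sets tested). AT2G15560 had signals of 125.8 and 139.4 in PL and 63.0 and 177.4 in NP in WT, and of 831.9 and 981.3 in PL and 13084.3 and 13867.0 in NP in eif3h, a difference of states, WT minus eif3h, of 4.22 (adjusted p = 0.042). The WT fractions overlapped, each WT signal lay below the median of its array, and the gene passed the signal filter, a mean over all 8 arrays, through its eif3h signals, so the test rests on a gene admitted by the group where it was high. AT5G55600 had 401.9 and 364.1 in PL and 418.2 and 326.4 in NP in WT, and 120.1 and 106.3 in PL and 655.0 and 682.6 in NP in eif3h (difference 2.62, adjusted p = 0.046). AT3G14600, a ribosomal protein L18a, differed by -2.25 and AT5G18800, a complex I subunit, by -2.07 (adjusted p = 0.046 for both), each higher in NP in WT. A pair of probe sets with no gene name here differed by 2.57 and 2.67 (adjusted p = 0.042 and 0.046). None of the 6 passed the test without the replicate block, without the signal filter or without the variance trend.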

How the results depend on the processing

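Of the 118 named genes past the test, 117 kept their sign under every alternative run, psaB being the exception (0.024 under quantile normalization), and 70 also stayed past the test under every alternative that included them. rbcL, which did not pass, stood at -0.084 under quantile normalization and ranged from -0.26 to 0.31 with a WT replicate left out. RCA ranged from -0.30 to 0.51, AT5G55600 from -0.057 to 0.16 and AT2G15560 from -0.35 to 0.998 in the same way, none of them past the main test.

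Counts of calls moved more than directions did. Probe sets higher in PL numbered 838 with no replicate block, 2671 on the WT arrays only, 624 by a 2-fold rule in both replicates with no test, and from 778 to 1061 with a WT replicate left out. Those higher in NP numbered 895, 2650 and 733 under the same 3 settings, 1065 in the upper 25% of signal, where fewer probe sets were tested, and from 795 to 994 with a WT replicate left out. With a WT replicate left out, the remaining WT pair is assumed to vary like eif3h. The count of differences between WT and eif3h, whose alternatives were chosen after seeing the data, was 186 with the gradient as the block, 40 after median centring, 1 after quantile normalization, 0 with no replicate block, no signal filter or no variance trend, and from 1 to 3 with a WT replicate left out. The cause of these shifts was not tested.

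Of the 16 list medians given, taken relative to all named genes, those near 0 changed sign: large subunit ribosomal proteins stood at -0.015 under quantile normalization, against 0.089, and small subunit ribosomal proteins at 0.015 without the signal filter, against -0.012. The other 14 kept their sign under every alternative run. Shifts larger than the SD between replicates (0.131) follow. Quantile normalization gave -2.12 for mitochondrion-encoded genes, -0.48 for plastid-encoded genes and -1.35 for the chromosome 2 insertion, which stood at -1.49 on log2(signal + 16). Without the signal filter, which adds dim genes, medians were 1.36 for subtilases, 0.85 for tetrapyrrole synthesis, 1.13 for plastid ribosomal proteins, -1.94 for mitochondrion-encoded genes, -0.60 for plastid-encoded genes, -0.26 for RING finger proteins, 0.40 for aspartyl proteases, -1.12 for the insertion, 0.23 for large subunit ribosomal proteins, 0.55 for aminoacyl-tRNA synthetases, 0.19 for leucine-rich repeat kinases and 0.54 for complex I. In the upper 25% of signal they were 1.21 for aspartyl proteases, -0.18 for small subunit ribosomal proteins and 0.47 for initiation factors. With a WT replicate left out they ranged from 0.99 to 1.21 for subtilases, 0.90 to 1.17 for tetrapyrrole synthesis, 0.41 to 0.99 for histones, -0.90 to -0.60 for plastid-encoded genes, 0.19 to 0.33 for aspartyl proteases, -1.80 to -1.52 for the insertion, 0.16 to 0.44 for initiation factors and 0.25 to 0.35 for complex I.

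Fewer dim probe sets were called: of the 2844 tested probe sets with the lowest signals 164 were higher in PL and 327 higher in NP, against 705 and 536 of the 2843 with the highest. A comparison by protein length was not run, since no protein sequences were used here. The paper reports that in WT mRNAs with longer main coding regions had higher translation states. The part of length in the states of the genes and lists named here was not tested.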
